A study of Mus musculus with 23 samples.

Results

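The 10 genes described here encode parts of the T cell receptor, its coreceptors and effector proteins of T cells: Cd3d, Cd3e, Cd3g, Trac, Trbc2, Cd4, Cd8a, Cd8b1, Cxcr6 and Nkg7. They were taken by name from the 54232 genes counted in 23 RNA-seq libraries of the hippocampus of C57BL/6 mice. The 9-month cohort held 4 libraries of PS19 mice heterozygous for Lsd1 (PS19;Lsd1Δ/+), 4 of PS19 mice with both Lsd1 copies (PS19), 2 of Lsd1 heterozygotes without the transgene (Lsd1Δ/+) and 4 of wild-type mice (WT). The 11-month cohort had been given an adeno-associated virus into the hippocampus with neuron-specific expression: 3 libraries came from PS19 mice given LSD1 (PS19_rescue), 3 from PS19 mice given the HA control (PS19_HA) and 3 from wild-type mice given the HA control (WT_HA). PS19 mice carry a mutant human tau transgene under the mouse prion protein promoter and are a widely used model of tauopathy, while LSD1, encoded by Kdm1a, is a histone lysine demethylase. In the 11-month cohort the virus was thus shared by all 3 groups, and age, virus and cohort cannot be told apart. Nothing in the labels says whether each library is a separate animal, so p-values measure the spread between these libraries only, which may in part be technical.

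T cells recognise peptides on major histocompatibility complex (MHC) molecules through a receptor made of alpha and beta chains, which signals through the CD3 chains. CD4 and CD8 are coreceptors that bind MHC class II and class I, CXCR6 is the receptor for the chemokine CXCL16 and is borne by tissue-resident T cells, and NKG7 is a granule protein of cytotoxic T and natural killer cells. The healthy brain parenchyma holds few T cells, and more have been described in mouse models of tauopathy.

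In the mouse genome (GRCm38) the 3 CD3 genes lie side by side on chromosome 9. Cd3g and Cd3d run head to head with 1354 bases between them, and Cd3e follows Cd3d after 11400 bases. Their promoters are shown because Cd3e with Cd3g and Cd3d with Cd3e were the 2 pairs of members that ran most alike across the libraries. Each sequence runs from 250 bases before to 50 bases after the RefSeq start of the gene (GRCm38.p6), 5′ to 3′ on the gene's strand, with capitals marking matches, on either strand, to 1 of 5 searched motifs, whose letters are given below the sequences. The windows are chr9:44980382-44980681 on the minus strand for Cd3g, chr9:44981536-44981835 on the plus strand for Cd3d and chr9:45009562-45009861 on the minus strand for Cd3e.
Cd3g: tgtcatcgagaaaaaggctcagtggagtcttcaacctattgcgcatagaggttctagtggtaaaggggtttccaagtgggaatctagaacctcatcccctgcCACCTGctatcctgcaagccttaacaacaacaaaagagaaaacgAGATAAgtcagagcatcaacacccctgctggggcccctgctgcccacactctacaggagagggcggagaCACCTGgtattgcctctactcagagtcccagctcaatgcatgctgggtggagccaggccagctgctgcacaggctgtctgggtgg
Cd3d: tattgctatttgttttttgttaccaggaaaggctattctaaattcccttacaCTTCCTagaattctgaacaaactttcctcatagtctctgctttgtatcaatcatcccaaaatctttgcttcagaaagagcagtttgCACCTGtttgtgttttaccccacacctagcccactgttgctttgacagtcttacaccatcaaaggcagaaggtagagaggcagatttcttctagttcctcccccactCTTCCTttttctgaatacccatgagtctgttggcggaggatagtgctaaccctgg
Cd3e: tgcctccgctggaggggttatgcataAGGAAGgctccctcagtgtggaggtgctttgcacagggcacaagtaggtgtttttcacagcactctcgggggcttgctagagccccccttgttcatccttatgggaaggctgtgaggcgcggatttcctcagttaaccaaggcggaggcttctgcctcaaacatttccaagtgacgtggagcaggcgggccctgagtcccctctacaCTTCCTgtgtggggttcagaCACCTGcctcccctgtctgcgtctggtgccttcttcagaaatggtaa
All 3 windows held the E-box searched as CACCTG, which Cd3g had at 2 places and which 20.2% of the 32851 promoter windows in the RefSeq table held. The ETS motif, searched as AGGAAG, stood at 2 places each in the Cd3d and Cd3e windows (35.4% of all windows held it), and the GATA motif, searched as AGATAA, once in that of Cd3g (11.2%). The matches did not overlap, and a match of letters does not show that a factor binds there. None of the 3 windows held the RUNX motif searched as TGTGGT, which 16.8% of all windows held, or the TATA box searched as TATAAA, which 13.6% held. Of the 10 genes, 6 had a window in the table.

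Hippocampal neuron markers (7 genes) were all detected in every library and summed to 3958 to 10139 CPM, the usual scaling of a count to the total counts of its library. Prnp, whose promoter drives the transgene, stood at 1180 to 1964 CPM in the 14 libraries labelled with the transgene and at 433 to 913 CPM in the 9 others. Kdm1a reached 1883 to 11084 CPM in PS19_rescue, against 63.9 to 66.1 CPM in PS19_HA, and was 35.1 and 36.4 CPM in Lsd1Δ/+, against 39.8 to 59.2 CPM in WT. Libraries differed beyond their labels in several ways. Mitochondrial genes took 33.9% of the reads of WT replicate 3, 16.1% of PS19 replicate 3 and 16.2% of WT_HA replicate 2. By Xist and Ddx3y, 6 libraries of the 11-month cohort were of female type, and PS19_rescue replicate 1, taken as male type, held both Xist (64 CPM) and Ddx3y (75.9 CPM). WT_HA replicate 3, also taken as male type, held 42.5 CPM of Xist beside 105 CPM of Ddx3y. Of the female type, WT_HA replicate 2 held 8.7 CPM of Ddx3y and PS19_HA replicate 2 held 8.32 CPM. Kdm1a stood at 59.7 CPM in PS19;Lsd1Δ/+ replicate 3, above 3 of the 4 PS19 libraries. The striatum markers of 6 libraries and the neocortex markers of 2 of these stood apart, as given beside Cd4 and Trbc2. The 10 thalamus markers summed to 898 CPM in PS19;Lsd1Δ/+ replicate 2, 680 in PS19_rescue replicate 3, 485 in WT_HA replicate 3 and 421 in PS19_HA replicate 3, and to 87.7 to 226 CPM in the other 19 libraries.

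All 10 genes were scarce. Among 15451494 to 24644977 counted reads per library, they took 2028 reads over the 23 libraries, or 4.22 CPM. Only Trac, Trbc2 and Cd4 were read in every library, and Cd3d was read in 12, Cd8b1 in 14, Nkg7 in 15, Cd3g and Cxcr6 in 19, Cd3e in 20 and Cd8a in 22 of 23. With at least 3 reads asked for, Cd3d was found in 8 libraries, Cd8b1 in 5 and Nkg7 in 6. A count of 0 allows up to 3 reads, which is 0.122 to 0.194 CPM depending on the library. All 10 genes were read together in 10 of the 14 transgene libraries and in 0 of the 9 libraries without the transgene. This is a bulk measurement, in which fewer cells of a type and less RNA per cell cannot be told apart.

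**Figure D1:**
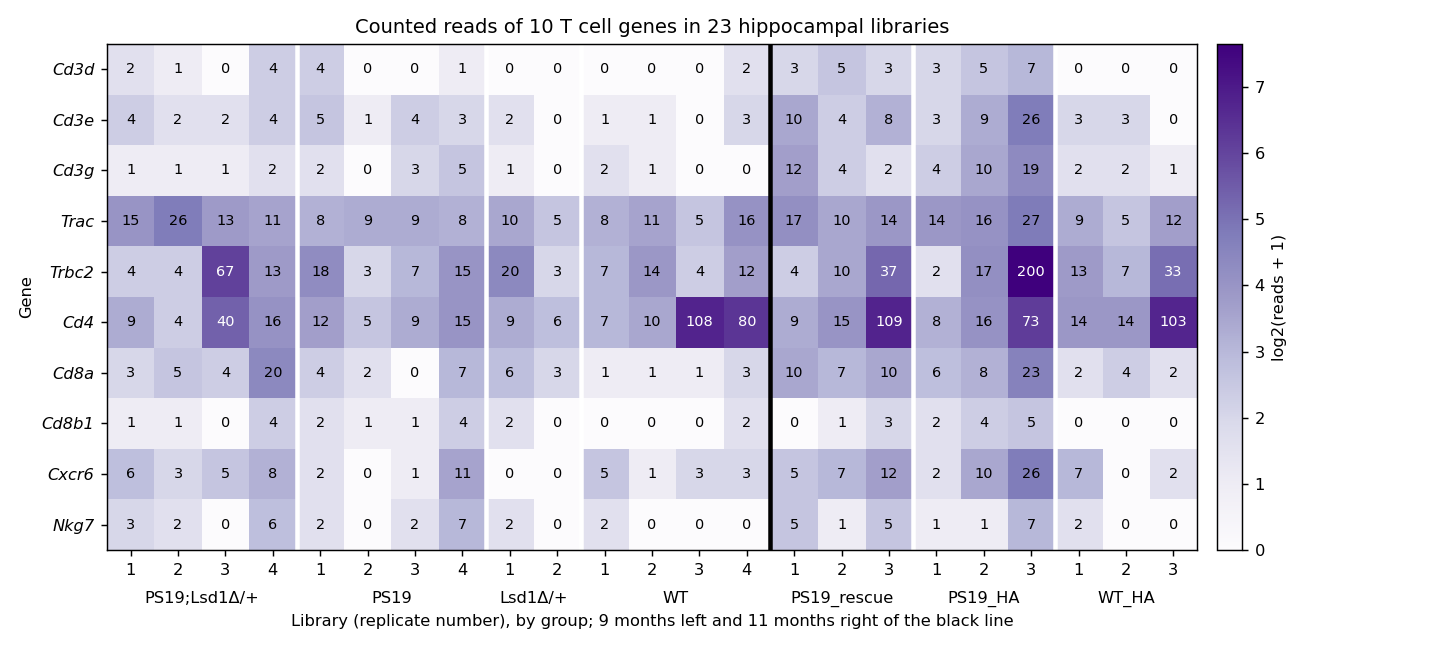
Counted reads of each gene (rows) in each library (columns, by group and replicate number), with darker shading for more reads on a log2(reads + 1) scale. The darkest cells are Trbc2 in PS19_HA replicate 3 (200 reads) and Cd4 in PS19_rescue replicate 3 (109 reads), WT replicate 3 (108 reads) and WT_HA replicate 3 (103 reads), while Cd3d and Cd8b1 had 0 reads in every WT_HA library.

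Compared per kilobase of exon over the 23 libraries, the receptor constant genes stood above their CD3 partners. Trbc2 averaged 1.51 ± 2.65 and Trac 0.618 ± 0.269 CPM per kilobase (SD, n = 23). Cd4 followed with 0.358 ± 0.438, Cxcr6 with 0.126 ± 0.131, Nkg7 with 0.112 ± 0.13 and Cd8a with 0.0776 ± 0.0836 CPM per kilobase. Cd3e, Cd3g, Cd8b1 and Cd3d closed the order between 0.0496 and 0.0453 CPM per kilobase. Every step between neighbours in this order was smaller than the SD of the higher one. Trac and Trbc2 each exceeded all 3 CD3 chains per kilobase in 23 of 23 libraries. In 2 libraries, WT replicate 3 and Lsd1Δ/+ replicate 2, no read of any CD3 chain was counted, yet Trac had 5 reads in each.

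The CD3 chains carry the signal of the receptor. In the 11-month cohort Cd3d, the delta chain, had 3, 5 and 3 reads in the PS19_rescue libraries, 3, 5 and 7 in PS19_HA and 0, 0 and 0 in WT_HA. Cd3e, the epsilon chain, had 10, 4 and 8 reads in PS19_rescue, 3, 9 and 26 in PS19_HA and 3, 3 and 0 in WT_HA. Cd3g, the gamma chain, had 12, 4 and 2 reads in PS19_rescue, 4, 10 and 19 in PS19_HA and 2, 2 and 1 in WT_HA. The highest count of each chain fell in a library with the transgene, and PS19_HA replicate 3 led all 3 genes. At 9 months the counts were lower. Cd3e had 4, 2, 2 and 4 reads in PS19;Lsd1Δ/+, 5, 1, 4 and 3 in PS19, 2 and 0 in Lsd1Δ/+ and 1, 1, 0 and 3 in WT. Cd3g had 1, 1, 1 and 2 reads in PS19;Lsd1Δ/+, 2, 0, 3 and 5 in PS19, 1 and 0 in Lsd1Δ/+ and 2, 1, 0 and 0 in WT. Cd3d had 2, 1, 0 and 4 reads in PS19;Lsd1Δ/+, 4, 0, 0 and 1 in PS19, 0 and 0 in Lsd1Δ/+ and 0, 0, 0 and 2 in WT. The groups of the 9-month cohort overlapped for each of the 3 genes. The Cd3e gene overlaps the predicted genes Gm48719 and Gm48720, with 135 exonic bases shared and 0.006 CPM counted for them on average.

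Cd8a and Cd8b1 encode the chains of the CD8 coreceptor. Cd8a had 10, 7 and 10 reads in PS19_rescue, 6, 8 and 23 in PS19_HA and 2, 4 and 2 in WT_HA. The 9-month libraries had 3, 5, 4 and 20 reads in PS19;Lsd1Δ/+, 4, 2, 0 and 7 in PS19, 6 and 3 in Lsd1Δ/+ and 1, 1, 1 and 3 in WT. In CPM, every PS19_rescue and PS19_HA library lay above every WT_HA library, and every PS19;Lsd1Δ/+ and Lsd1Δ/+ library above every WT library. At 9 months that order rested on library totals. The lowest PS19;Lsd1Δ/+ library (0.1465 CPM), the lowest Lsd1Δ/+ library (0.1596 CPM) and WT replicate 4 (0.1244 CPM) each had 3 reads. Cd8b1 had 0, 1 and 3 reads in PS19_rescue, 2, 4 and 5 in PS19_HA and 0, 0 and 0 in WT_HA. At 9 months it had 1, 1, 0 and 4 reads in PS19;Lsd1Δ/+, 2, 1, 1 and 4 in PS19, 2 and 0 in Lsd1Δ/+ and 0, 0, 0 and 2 in WT. Both genes thus had their highest counts in libraries with the transgene.

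Summed over the 5 CD3 and CD8 genes, the 11-month transgene groups stood apart from their control. This sum was chosen after values had been seen and leaves out the other members, so its separation of the groups is a description. How often sums of 5 other genes separate them was not tested. The sum was 2.11, 0.909 and 1.05 CPM in PS19_rescue, 0.8289, 1.6 and 3.38 CPM in PS19_HA and 0.295, 0.458 and 0.122 CPM in WT_HA. No PS19_rescue or PS19_HA library overlapped WT_HA, and the 2 PS19 groups overlapped each other. The mean was 1.36 ± 0.656 CPM in PS19_rescue (82 reads) and 1.94 ± 1.31 CPM in PS19_HA (134 reads), against 0.292 ± 0.168 CPM in WT_HA (19 reads; SD, n = 3 each), or 4.66 and 6.64 times WT_HA. Without PS19_HA replicate 3, PS19_HA averaged 4.17 times WT_HA. At 9 months the sum was 0.537, 0.406, 0.453 and 2.18 CPM in PS19;Lsd1Δ/+, 0.811, 0.207, 0.493 and 0.917 CPM in PS19, 0.487 and 0.16 CPM in Lsd1Δ/+ and 0.186, 0.128, 0.0635 and 0.415 CPM in WT. PS19;Lsd1Δ/+ averaged 4.51 times WT, and 2.35 times without its replicate 4. PS19 averaged 3.07 times WT. Without WT replicate 4, these were 7.1 times for PS19;Lsd1Δ/+ and 4.82 times for PS19. Both groups overlapped WT in CPM, PS19 through its replicate 2 and PS19;Lsd1Δ/+ through its replicate 2. Over both cohorts, 11 of the 14 transgene libraries lay above the highest of the 9 others, and the medians were 0.869 CPM with the transgene and 0.186 CPM without it. For the sum of all 10 members, 3 of the 14 did. That sum overlapped at 11 months, at 2.77 to 8.24 CPM in PS19_rescue, 2.07 to 17.5 CPM in PS19_HA and 1.78 to 6.23 CPM in WT_HA. At 9 months it averaged 4.63 CPM in PS19;Lsd1Δ/+, 2.4 CPM in PS19 and 3.98 CPM in WT.

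**Figure D2:**
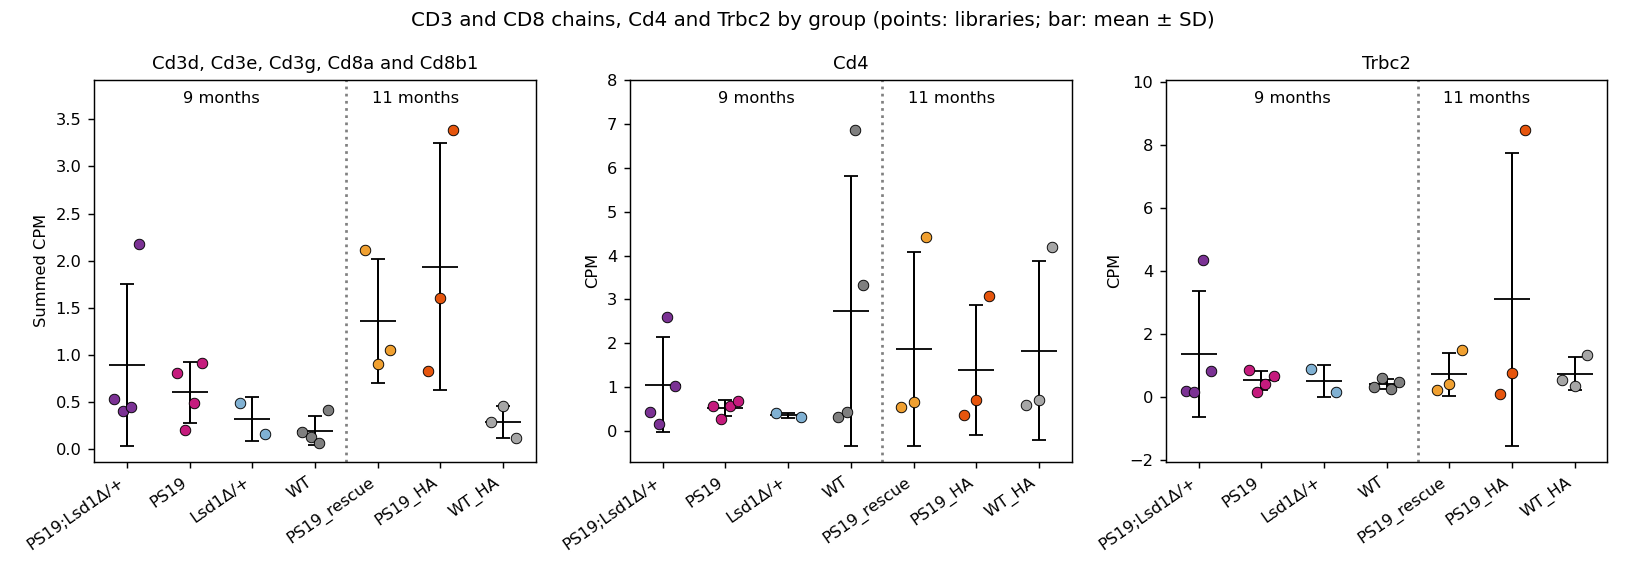
CPM per library (points) by group, with the mean and SD as bars, for the sum of Cd3d, Cd3e, Cd3g, Cd8a and Cd8b1 (left), for Cd4 (middle) and for Trbc2 (right), with 9-month groups left and 11-month groups right of the dotted line. The CD3 and CD8 sum is at 0.8289 CPM or more in every PS19_rescue and PS19_HA library and at 0.458 CPM or less in every WT_HA library. Cd4 is highest in WT replicate 3 and Trbc2 in PS19_HA replicate 3.

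Trac and Trbc2 encode the constant region of the alpha chain and one of the constant regions of the beta chain. Trac had 17, 10 and 14 reads in PS19_rescue, 14, 16 and 27 in PS19_HA and 9, 5 and 12 in WT_HA. At 9 months it had 15, 26, 13 and 11 reads in PS19;Lsd1Δ/+, 8, 9, 9 and 8 in PS19, 10 and 5 in Lsd1Δ/+ and 8, 11, 5 and 16 in WT. In CPM, every PS19_HA library lay above every WT_HA library, and every PS19;Lsd1Δ/+ library above every PS19 and every WT library. Trac averaged 0.834 ± 0.16 CPM in PS19;Lsd1Δ/+, against 0.442 ± 0.0867 CPM in PS19 and 0.456 ± 0.152 CPM in WT (SD, n = 4 each). PS19;Lsd1Δ/+ replicate 2, with the most Trac reads of its group, was also the library with the most RNA of thalamus markers, whose part in the Trac counts was not tested. Without it the log2 difference of Trac was 0.69 against PS19 and 0.53 against WT, set beside 0.81 and 0.65 with it. Trbc2 had 4, 10 and 37 reads in PS19_rescue, 2, 17 and 200 in PS19_HA and 13, 7 and 33 in WT_HA. At 9 months it had 4, 4, 67 and 13 reads in PS19;Lsd1Δ/+, 18, 3, 7 and 15 in PS19, 20 and 3 in Lsd1Δ/+ and 7, 14, 4 and 12 in WT. Its groups overlapped in each comparison, and PS19_HA replicate 3 and PS19;Lsd1Δ/+ replicate 3 stood above all other libraries.

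Those 2 libraries, PS19_HA replicate 3 (8.46 CPM of Trbc2) and PS19;Lsd1Δ/+ replicate 3 (4.34 CPM), also had the highest sums of 9 neocortex markers, 621 and 373 CPM. The other 21 libraries had 182 to 331 CPM of these markers and 0.0921 to 1.5 CPM of Trbc2. All 9 markers, such as Rorb, were detected in every library. The part of neocortical RNA in the Trbc2 counts was not tested.

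Cd4 encodes the coreceptor of helper T cells and is also known from macrophages. It had 9, 15 and 109 reads in PS19_rescue, 8, 16 and 73 in PS19_HA and 14, 14 and 103 in WT_HA. The 9-month counts were 9, 4, 40 and 16 reads in PS19;Lsd1Δ/+, 12, 5, 9 and 15 in PS19, 9 and 6 in Lsd1Δ/+ and 7, 10, 108 and 80 in WT. Replicate 3 of 5 groups and WT replicate 4 thus set the level of Cd4, with and without the transgene. In these 6 libraries Cd4 stood at 2.59 to 6.86 CPM and the sum of 10 striatum markers, such as Drd1 and Drd2, at 367 to 620 CPM. In the 17 other libraries Cd4 stood at 0.163 to 1.03 CPM and the striatum markers at 136 to 226 CPM, with 9 or 10 of the 10 markers detected. The part of striatal RNA in the Cd4 counts was not tested. Border macrophage and monocyte markers (10 genes) summed to 5.84 to 28.6 CPM in the transgene libraries and 4.47 to 14.8 CPM in the others, and their part in the Cd4 counts was likewise not tested. By group, Cd4 averaged 1.05 ± 1.08 CPM in PS19;Lsd1Δ/+ and 0.519 ± 0.183 CPM in PS19, against 2.73 ± 3.08 CPM in WT (SD, n = 4 each).

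**Figure D3:**
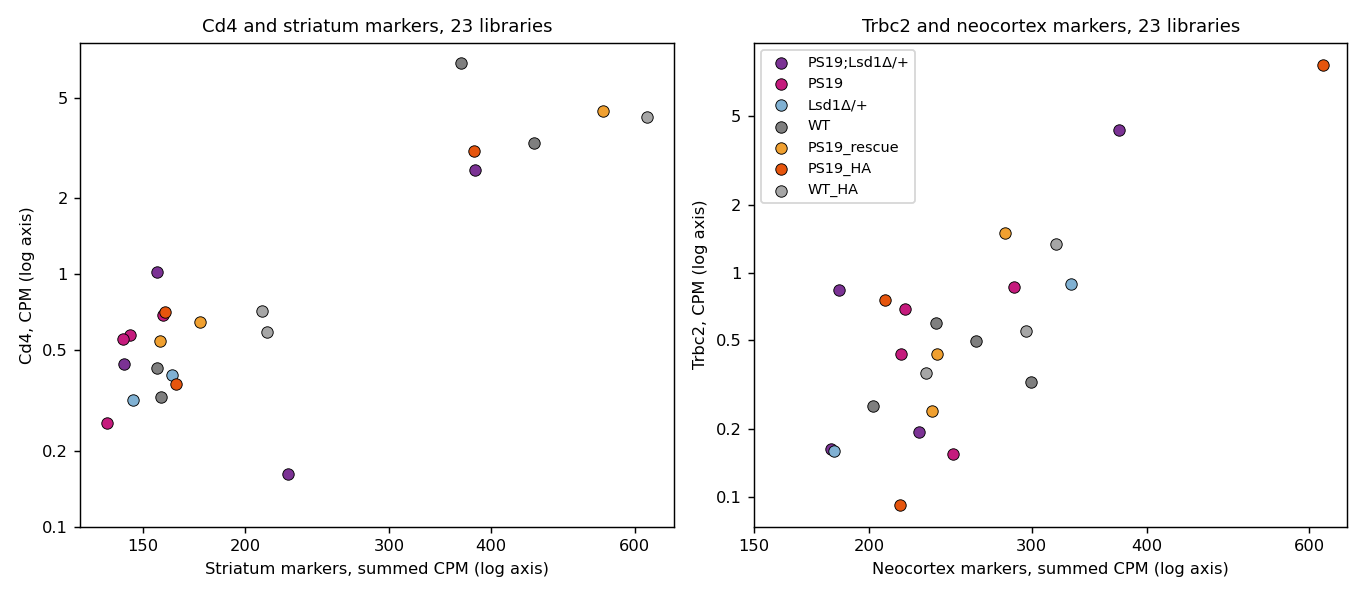
CPM of Cd4 against the summed CPM of 10 striatum markers (left) and CPM of Trbc2 against the summed CPM of 9 neocortex markers (right), 1 point per library coloured by group, all axes logarithmic. The 6 libraries with striatum markers at 367 CPM or more have Cd4 at 2.59 CPM or more, and the 2 with neocortex markers at 373 CPM or more have Trbc2 at 4.34 CPM or more.

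Cxcr6, the CXCL16 receptor, had 5, 7 and 12 reads in PS19_rescue, 2, 10 and 26 in PS19_HA and 7, 0 and 2 in WT_HA. At 9 months it had 6, 3, 5 and 8 reads in PS19;Lsd1Δ/+, 2, 0, 1 and 11 in PS19, 0 and 0 in Lsd1Δ/+ and 5, 1, 3 and 3 in WT. In CPM the PS19_rescue libraries lay above all WT_HA libraries, and the other transgene groups overlapped their controls. The nearest libraries were PS19_rescue replicate 1 at 0.3016 CPM (5 reads) and WT_HA replicate 1 at 0.2949 CPM (7 reads), so library totals set that order. Cxcr6 lies within Fyco1 on the opposite strand, without shared exonic bases, and Fyco1 averaged 87.4 CPM. Whether reads were counted by strand is not given in the sources used here, so stray reads of Fyco1 cannot be told from those of Cxcr6. Nkg7, the granule protein, had 5, 1 and 5 reads in PS19_rescue, 1, 1 and 7 in PS19_HA and 2, 0 and 0 in WT_HA. The 9-month counts were 3, 2, 0 and 6 reads in PS19;Lsd1Δ/+, 2, 0, 2 and 7 in PS19, 2 and 0 in Lsd1Δ/+ and 2, 0, 0 and 0 in WT. Its groups overlapped in every comparison, with at most 2 reads in any library without the transgene.

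Counts of all genes were compared with the quasi-likelihood test of edgeR, with Benjamini-Hochberg adjusted p under 0.05 as a call and a filter on low counts. In the 9-month fit Cd4, Cxcr6, Trac and Trbc2 passed the filter, in the 11-month fit also Cd3g, and over all 23 libraries also Cd3e and Cd8a. Cd3d, Cd8b1 and Nkg7 passed in none. Cd3e passed only through PS19_HA replicate 3 and PS19_rescue replicate 1, the 2 libraries with at least 10 of its reads. Cd3g had at least 10 reads in 3 libraries, and Cd8a and Cxcr6 in 4 each, all of them with the transgene. These 4 genes were thus tested only through the group in which they were high. Their values are descriptions wherever transgene libraries were set against libraries without the transgene, and in the change of the tau effect. This holds for Cd3g and Cxcr6 in the 11-month cohort and for Cxcr6 in the 9-month cohort. In the 11-month cohort Trac had at least 10 reads in 3 PS19_HA, 3 PS19_rescue and 1 of the WT_HA libraries. Its values against WT_HA are thus descriptions as well. In PS19 against WT 0 of the 4 members tested were called, where 0.00497% of all 20122 genes were. PS19;Lsd1Δ/+ against WT gave 0 of 4, against 0.00497% of all genes, and PS19;Lsd1Δ/+ against PS19 and Lsd1Δ/+ against WT gave 0 of 4 each, against 0% of all genes. In the 11-month cohort 0 of 5 members were called in PS19_HA against WT_HA (0.0156% of 19290 genes), in PS19_rescue against PS19_HA (0%) and in PS19_rescue against WT_HA (0.0207%). The change of the tau effect between 11 and 9 months was called for 0 of 7 members and 0% of 20931 genes. At an unadjusted p under 0.05, edgeR counted 1 of 4 members in PS19 against WT (Cd4; 3.91% of all genes), 1 of 4 in PS19;Lsd1Δ/+ against PS19 (Trac; 1.25%), 2 of 4 in Lsd1Δ/+ against WT (Cd4 and Cxcr6; 1.28%), 2 of 5 in PS19_HA against WT_HA (Cd3g and Trac; 8.63%) and 1 of 7 in the change of the tau effect (Trac; 0.569%). It counted 0 in PS19;Lsd1Δ/+ against WT (6.31% of all genes), PS19_rescue against PS19_HA (1.81%) and PS19_rescue against WT_HA (4.01%). Because Cd3g and Trac in PS19_HA against WT_HA are descriptions, the count there cannot be read against the share of all genes. DESeq2 called 0 members in these 8 comparisons as well, where it called 0.949% of all genes in PS19 against WT, 0.547% in PS19;Lsd1Δ/+ against WT and 0.00497% each in PS19;Lsd1Δ/+ against PS19 and Lsd1Δ/+ against WT. In the 11-month cohort DESeq2 called 0.627% of all genes in PS19_HA against WT_HA, 0.0156% in PS19_rescue against PS19_HA and 0.0933% in PS19_rescue against WT_HA, and it called 0% in the change of the tau effect.

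The members that came nearest to a call in these comparisons had few reads. In PS19_HA against WT_HA, Cd3g had a log2 difference of 2.5 (SE 0.93, edgeR adjusted p = 0.519) and Trac of 1.03 (SE 0.417, adjusted p = 0.555), higher in 3 of 3 PS19_HA libraries than in any WT_HA library. Cd3d, at 15 reads in PS19_HA and 0 in WT_HA, was at least 4.96-fold higher against a floor of 3 counts over the WT_HA group, and Cd8b1, at 11 and 0 reads, at least 3.63-fold. Both bounds allow for counting error in WT_HA only and take the reads of PS19_HA as exact. Cxcr6 had a log2 difference of 1.94 (SE 0.93, edgeR adjusted p = 0.612), and 0.94 without PS19_HA replicate 3. Trbc2 had a log2 difference of 1.93 (SE 1.2, adjusted p = 0.68) that rested on PS19_HA replicate 3, without which it was -0.89. For Cd4 the log2 difference was -0.48 (SE 1.04, adjusted p = 0.909), and without WT_HA replicate 3 it was 0.91. In PS19_HA against WT_HA 5 members lay above WT_HA in every library, namely Cd3d, Cd3g, Trac, Cd8a and Cd8b1, where 8.82% of all genes with a read did. In PS19_rescue against WT_HA 4 did, Cd3d, Cd3e, Cd8a and Cxcr6, where 6.4% of all genes did. In PS19;Lsd1Δ/+ against WT 2 did, Trac and Cd8a (3.57% of all genes), in PS19 against WT 0 (0.928%), in PS19;Lsd1Δ/+ against PS19 1, Trac (0.631%), and in Lsd1Δ/+ against WT 1, Cd8a (4.8%). Library totals set some of these orders. Cxcr6 had 5 reads in PS19_rescue replicate 1 and 7 in WT_HA replicate 1. Cd8a had 3 reads in the lowest PS19;Lsd1Δ/+ library, in the lowest Lsd1Δ/+ library and in WT replicate 4. Cxcr6, at 0 reads in both Lsd1Δ/+ libraries, lay below every WT library, as 4.13% of all genes did. No member lay below its control in every library in PS19 against WT (0.274% of all genes), PS19;Lsd1Δ/+ against WT (0.328%), PS19_HA against WT_HA (2.15%) or PS19_rescue against WT_HA (2.39%).

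At 9 months Cd4 had a log2 difference of -2.77 in PS19 against WT (SE 1.03, edgeR adjusted p = 0.822), where WT replicates 3 and 4 had 108 and 80 of the reads and replicates 1 and 2 had 7 and 10. DESeq2 put this difference of Cd4 at -2.85 (SE 0.944, adjusted p = 0.171). Trac in PS19;Lsd1Δ/+ against PS19 had a log2 difference of 0.81 (SE 0.344, adjusted p = 1), with 4 of 4 PS19;Lsd1Δ/+ libraries above the PS19 libraries. For the LSD1 virus, PS19_rescue against PS19_HA, no member was separated in either direction, where 2.9% of all genes lay above and 3.55% below in every library. Cd3g had a log2 difference of -0.66 (SE 0.765), Trac of -0.33 (SE 0.399), Cxcr6 of -0.57 (SE 0.814), Cd4 of 0.43 (SE 1.04) and Trbc2 of -2.05 (SE 1.21) there, each with an edgeR adjusted p of 1. Without PS19_HA replicate 3, Trbc2 stood at 0.77 and Cxcr6 at 0.42, and without PS19_rescue replicate 1 Cd3g stood at -1.89. For Cd4 the difference was -1.19 without PS19_rescue replicate 3. No change with the LSD1 virus was detected in the members tested, at SEs of 0.399 to 1.21. Cd3d, Cd3e, Cd8a, Cd8b1 and Nkg7 did not pass the filter in PS19_rescue against PS19_HA.

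All 14 libraries with the transgene were also set against the 9 without it, with age in the model. Cd3e had 85 reads in the transgene libraries and 13 in the others, with at least 1 read in 14 of 14 and in 6 of 9. Cd3d had 38 reads and 2, Cd3g 66 and 9, Cd8a 109 and 23, Cd8b1 29 and 4, Cxcr6 98 and 21, Nkg7 42 and 6, Trac 197 and 81, Trbc2 401 and 113 and Cd4 340 and 351. Cd4 was thus the only one of the 10 without an excess of mean reads per library in the transgene group. The excess of Trbc2 rested on PS19_HA replicate 3 (200 reads) and PS19;Lsd1Δ/+ replicate 3 (67 reads). Its median count was 11.5 with the transgene and 12 without it. edgeR called 0 of the 7 members tested, where it called 2.55% of all 20931 genes. Its log2 differences were 1.74 for Cd3e (SE 0.506, adjusted p = 0.07), 1.82 for Cd3g (SE 0.577, adjusted p = 0.107), 1.44 for Cd8a (SE 0.501, adjusted p = 0.164), 1.35 for Cxcr6 (SE 0.602, adjusted p = 0.364) and 0.61 for Trac (SE 0.227, adjusted p = 0.213). Trbc2 had 1.03 (SE 0.658, adjusted p = 0.607) and Cd4 -1.18 (SE 0.665, adjusted p = 0.532). Without PS19_HA replicate 3 Trbc2 had 0.41, and without WT replicate 3 Cd4 had -0.35. DESeq2, which called 4.01% of all genes, put the adjusted p of Cd3e at 0.0419 with a log2 difference of 1.81 (SE 0.575), for a gene that entered the test only through 2 transgene libraries. Over the 21 libraries that could be left out in turn DESeq2 kept its log2 difference between 1.51 and 2.08, with adjusted p values of 0.0256 to 0.134, and without PS19_HA replicate 3 or PS19_rescue replicate 1 it was not tested. Without the filter edgeR gave Cd3e an adjusted p of 0.117. Without the filter on low counts, 9 of the 10 members had a positive log2 difference, with a median of 1.58, where 48.6% of all 40290 genes had one and their median was -0.01.

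**Figure D4:**
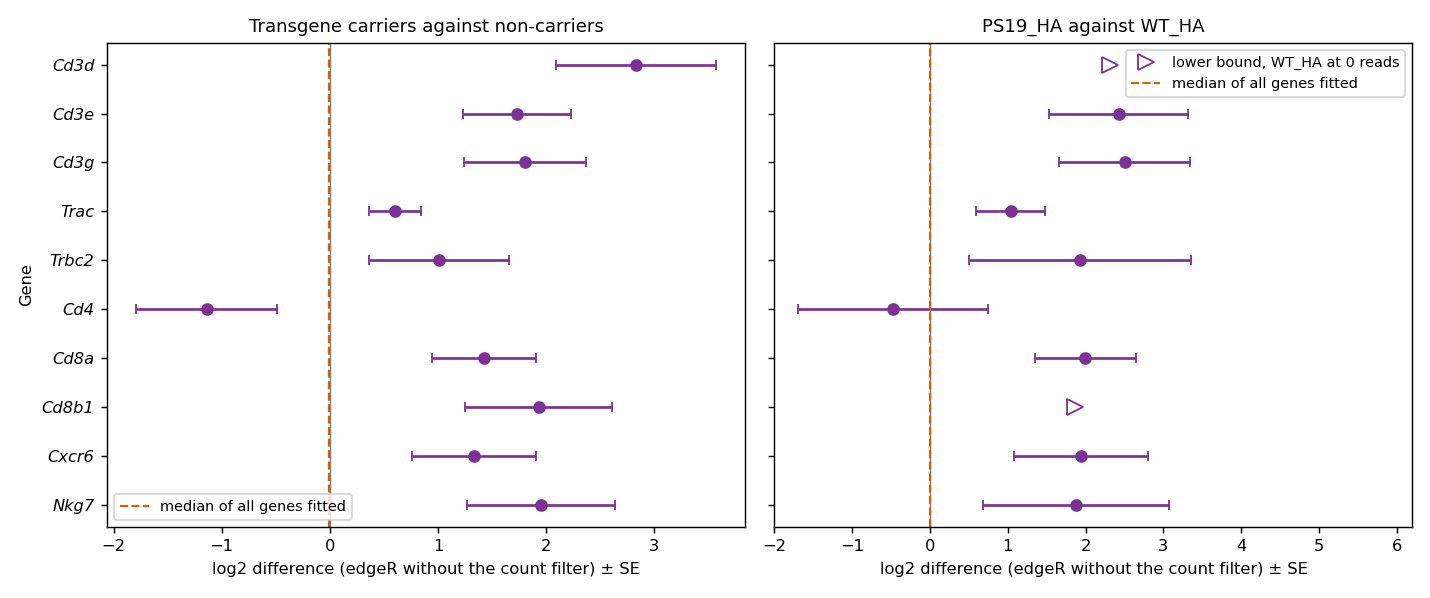
Log2 difference with its SE for each gene, from edgeR without the filter on low counts, for transgene carriers against non-carriers (left) and PS19_HA against WT_HA (right), with the median of all genes as a dashed line. Of the 10 genes, 9 lie above 0 in each panel and Cd4 lies below it, none is called at an adjusted p under 0.05, and the open triangles give lower bounds for Cd3d and Cd8b1, which had 0 reads in WT_HA. These bounds take the reads of PS19_HA as exact.

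Genes of the same pathways were read from lists. Among 16 further genes of T cell receptor signalling, 9 passed the filter in the comparison of transgene carriers with non-carriers and edgeR called 0, with a median log2 difference of 0.06. Lcp2, an adaptor of the receptor that myeloid cells also use, had 0.71 (SE 0.204, edgeR adjusted p = 0.0688) and was called by DESeq2. Lck, the kinase that starts the signal, had 0.15 (SE 0.216, adjusted p = 0.885). Of 14 costimulation and checkpoint genes 11 were tested and 3 rose, where 2.45% of all genes rose. These were Lag3, an inhibitory receptor that binds MHC class II, by 2.28 (SE 0.38, adjusted p = 0.00132), Pdcd1, which encodes the inhibitory receptor PD-1, by 2.96 (SE 0.58, adjusted p = 0.00447), and Havcr2, which encodes TIM-3 and is also known from microglia, by 1.03 (SE 0.247, adjusted p = 0.0222). Of 16 cytotoxic and effector genes 6 were tested, and Ccl5, a chemokine of activated T cells that other immune cells also make, rose by 4.14 (SE 0.641, adjusted p = 0.000847). Gzma, Gzmb and Prf1, which encode granule proteins of cytotoxic cells, did not pass the filter, with at most 8 reads of Gzma and at most 2 reads of Gzmb or Prf1 in any library. Of 14 genes of naive, memory and regulatory T cells 8 were tested and 0 rose or fell.

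Of 15 ligands and adhesion molecules 12 were tested and 7 rose (2.45% of all genes rose), with a median log2 difference of 1.87 over the 12. Cxcl16, the ligand of CXCR6, stood at 4.81 ± 0.885 CPM in PS19;Lsd1Δ/+ and 5 ± 3.04 CPM in PS19, against 1.06 ± 0.0976 CPM in WT (SD, n = 4 each), and rose by 1.81 in carriers against non-carriers (SE 0.28, edgeR adjusted p = 0.000847). Cxcl10, which draws T cells through CXCR3, stood at 3.04 ± 1.61 CPM in PS19_rescue and 2.98 ± 1.11 CPM in PS19_HA, against 0.49 ± 0.209 CPM in WT_HA (SD, n = 3 each), and rose by 4.04 in carriers (SE 0.523, adjusted p = 0.000209). Ccl3, Ccl4, Ccl2, Cxcl13 and Icam1 rose as well. Of 17 antigen presentation genes, all tested, 10 rose (2.45% of all genes), among them Nlrc5, the activator of MHC class I genes, by 2.18 (SE 0.333, adjusted p = 0.00083) and the class II gene H2-Aa by 3.77 (SE 0.66, adjusted p = 0.00175). These lists were drawn up with earlier results of these data known and are not independent evidence of a direction.

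Of 10 microglia markers 5 rose in carriers (2.45% of all genes), Cx3cr1 and Csf1r among them, and the sum of all 10 was 316 to 823 CPM with the transgene and 210.5 to 338 CPM without it. The 7 natural killer cell markers summed to 0.207 to 1.41 CPM with the transgene and 0.305 to 1.21 CPM without it, and Ncr1 had 0 to 2 reads in every library. The 10 B and plasma cell markers summed to 8.38 to 237 CPM with the transgene and 8.7 to 114 CPM without it, and 0 of the 6 tested were called by edgeR. The part of these cells in the counts of Nkg7, Cxcr6 and Cd4 was not tested. Over the 23 libraries, the genes whose CPM ran most like the sum of the CD3 and CD8 genes were Ms4a4b (Spearman's rho 0.91), Gimap3 (0.902), Gimap4 (0.862), H2-Aa (0.861), H2-Eb1 (0.857) and Slamf7 (0.856), followed by Dtx3l, Cd74, Pir and Ccl12. For the sum of all 10 members they were Sptssa (0.845), Iars2 (0.837), Erbin (0.834), Hrasls (0.828) and Ptpn7 (0.824), followed by Aspa, Enpp6, Zfp54, Polr2k and Fbxo32. Among the members themselves, Cd3e ran most like Cd3g (0.804) and Cd3d (0.769), while Cd4 ran at 0.636 with Trbc2, 0.501 with Cxcr6, 0.0623 with Trac and -0.0071 with Nkg7. These correlations share libraries, groups and depth and are given as descriptions.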

How the data were processed

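Poly(A)-selected RNA of 23 hippocampal libraries was read as deposited: the authors deposited raw gene counts for each library, not normalized. Per the submitters' processing notes, FastQC 0.11.7, Trimmomatic 0.36.5, HISAT2 2.1.0, featureCounts 1.6.0.6 and DESeq2 2.11.40.2 were used on GRCm38, while strand setting, annotation release and the treatment of reads with several alignments have no statement in the sources used here. Groups and replicate numbers came from the sample titles. Gene symbols came from GENCODE, which named 54165 of 54232 identifiers, and the 67 others held 0.0184% of reads.

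CPM was computed as counts over the library total, without further scaling. Tests used edgeR 4.0.16 in R 4.3.3 (TMM, robust quasi-likelihood fit, filterByExpr by group with minimum count 10 and total 15). There was 1 fit for each cohort, with group as the only term. Over all 23 libraries, 1 fit held the transgene and age, and 1, for the change of the tau effect, held the 7 groups. DESeq2 1.42.0 was the second tool, in which an undefined adjusted p stayed undefined. An SE is the absolute log2 difference over the root of the F statistic (edgeR) or DESeq2's own. Counting error alone is covered by the floor of 3 counts. The fits were tested on simulated data. Changes were put only into genes with more reads on average than most members had, with a spread set in advance. The simulation thus does not show how well a change in these members would be found. Replicates differed by more than counting noise in every pair (chi-square per gene of 11.6 or more).

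The members and all lists were chosen with earlier results of these data known, and the lists for striatum, neocortex and thalamus after values had been seen. Of each list, up to 4 genes with the lowest p in PS19 against WT and any called gene could be named; Lck, Gzma, Gzmb, Prf1, Ncr1, Drd1, Drd2 and Rorb were named after their values were seen. The most alike genes were the 10 with the highest Spearman's rho to the log2 summed CPM (plus 0.1) among 20924 genes; predicted genes, pseudogenes and identifiers without a symbol were passed over (2 for the sum of all 10 members, 0 for the CD3 and CD8 sum, a sum chosen after values had been seen).

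The same replicate numbers recur across groups, though no label says what they share. They were taken as pairs where libraries of equal number departed from their group means together, with a correlation above 0.1 in every pair. Brackets give the correlations and how many libraries matched best with their own number. This held for PS19 against WT (0.497 to 0.821, 4 of 4), PS19;Lsd1Δ/+ against WT (0.313 to 0.538, 2 of 4) and PS19;Lsd1Δ/+ against PS19 (0.298 to 0.479, 0 of 4). It also held for PS19_HA against WT_HA (0.113 to 0.299, 3 of 3) and PS19_rescue against WT_HA (0.122 to 0.467, 2 of 3). In PS19;Lsd1Δ/+ against PS19 the best matches thus went against pairs by number. The main fits ignored these pairs, and the replicate block entered only as an alternative.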

Additional observations from a re-analysis of the deposited data

Results flagged for a closer look

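In 6 cases of 36 groups of 4 libraries compared, 1 library stood apart from the other 3, with a gap to its nearest neighbour above the 95% critical value of Dixon's test. Chance alone gives about 1 in 20 for continuous, normally spread values. For counts near 0 the rate is not known, since a group with reads in only 1 of 4 libraries is always flagged. The number of flags thus cannot be read as an excess over chance. In PS19;Lsd1Δ/+, replicate 4 held Cd8a at 1.28 CPM (20 reads), against 0.146 to 0.259 CPM in the other 3 libraries, and the CD3 and CD8 genes together at 2.18 CPM (34 reads), against 0.406 to 0.537 CPM. Replicate 3 of the same group held Trbc2 at 4.34 CPM (67 reads), against 0.163 to 0.834 CPM. In WT, replicate 4 held Cd3d and Cd8b1 at 0.0829 CPM each and replicate 1 held Nkg7 at 0.0932 CPM. These 3 values rest on 2 reads each, with 0 reads in the other 3 libraries, and lie below the floor of 3 counts.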

How the results depend on the processing

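In all 9 comparisons edgeR called 0 members, and that count stayed at 0 with RLE size factors, without the filter on low counts, without mitochondrial genes, with sex type or with replicates 1 and 2 against 3 and 4 as a covariate, with the compared groups alone and, chosen after seeing the data, without the replicates 3 of the 11-month cohort, as far as each applied. In carriers against non-carriers, leaving out those replicates 3 also took Cd3e and Cd3g out of the test, by edgeR and by DESeq2. These genes could thus not be called there. With the replicate block 0 members were called in each of the 7 comparisons of 2 groups, by edgeR and by DESeq2, and the block changed no call. In carriers against non-carriers DESeq2 called 1 member, and leaving out 1 library in turn gave 0 to 1. By edgeR Cd3e was called without PS19 replicate 2 or PS19_HA replicate 1 (adjusted p 0.047 and 0.0493), and by DESeq2 with 8 of the 23 libraries left out in turn, while Cd8a was called without PS19 replicate 3. All 359 gene values that alternatives gave in that comparison kept their sign. Over all comparisons 65 of 1708 values reversed, in 19 of 45 pairs of gene and comparison. In PS19 against WT, Cxcr6 (0.064) had -0.032 by DESeq2, -0.13 with the replicate block, -0.084 with the covariate, -0.16 without the filter and with the block, and -0.47 by DESeq2 with the block. Trbc2 there (0.21) had -0.11 by DESeq2 with the block. In PS19_HA against WT_HA, Trbc2 had -0.24 by both tools without the replicates 3. With 1 library left out in turn, PS19 against WT ranged by edgeR from -0.33 to 0.017 for Trac, -0.0924 to 0.51 for Trbc2 and -0.289 to 0.46 for Cxcr6, and PS19_HA against WT_HA from -0.892 to 2.59 for Trbc2 and -1.82 to 0.91 for Cd4. By DESeq2, Trbc2 had -0.0928 without PS19 replicate 1, and Cxcr6 had -0.39 and -0.18 without WT replicates 2 and 4, -0.0454, -0.0302 and -0.0455 without PS19;Lsd1Δ/+ replicates 1, 2 and 3, and -0.032 and -0.0328 without Lsd1Δ/+ replicates 1 and 2. Likewise Trbc2 had -0.896 without PS19_HA replicate 3 and Cd4 0.88 without WT_HA replicate 3. In PS19;Lsd1Δ/+ against WT, values ran from -0.357 to 1.86 for Trbc2, in PS19;Lsd1Δ/+ against PS19 from -0.558 to 1.66 for Trbc2 and -0.0569 to 1.29 for Cd4, and in Lsd1Δ/+ against WT from -1.45 to 0.918 for Trbc2. In PS19_rescue against PS19_HA they ran from -1.92 to 0.0223 for Cd3g, -0.747 to 0.101 for Trac, -3.15 to 0.774 for Trbc2, -1.19 to 1.78 for Cd4 and -1.07 to 0.428 for Cxcr6, and in PS19_rescue against WT_HA from -1.2 to 0.539 for Trbc2 and -1.66 to 1.34 for Cd4. In the change of the tau effect they ran from -0.124 to 1.3 for Cd3g, -1.1 to 2.4 for Trbc2 and -0.0648 to 1.62 for Cd8a. The cause was not tested. With 1 library left out, the ratio of the CD3 and CD8 sums turned below 1 in PS19;Lsd1Δ/+ against PS19 (0.766 without PS19;Lsd1Δ/+ replicate 4) and above 1 in PS19_rescue against PS19_HA (1.12 without PS19_HA replicate 3).

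The number of all genes called moved far more than that of the members. Over edgeR's alternatives it ran from 0 to 146 in PS19 against WT (1 as reported, DESeq2 191), 1 to 107 in PS19;Lsd1Δ/+ against WT (1, DESeq2 110), 0 to 86 in PS19_HA against WT_HA (3, DESeq2 121), 0 to 50 in PS19_rescue against PS19_HA (0, DESeq2 3), 0 to 9 in PS19_rescue against WT_HA (4, DESeq2 18) and 333 to 704 in carriers against non-carriers (533, DESeq2 839). The summed CPM of the 10 genes in PS19 against WT was 2.4 in PS19 and 3.98 in WT, and without Cd4 it was 1.88 in PS19 and 1.24 in WT. Thinned to the smallest library total, Cd3d would be expected in 11.1 libraries and Cd8b1 in 12.3, against 12 and 14 observed. Counts of 0 to 26 reads limit the CD3 chains.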
